A study of Homo sapiens with 8 samples.

Results

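The genes described here are 39 genes of glycolysis and of the response to low oxygen, chosen by name: glucose and lactate transporters, the enzymes from hexokinase to pyruvate kinase, enzymes that set the fate of pyruvate or the pace of glycolysis, the hypoxia-inducible factors (HIF) and genes known as their targets. Expression values did not enter the choice rule, although the list was drawn up with earlier results of these data known. Of the 39 genes, 37 had a probe in the annotation used, and 35 had a probe above background and were measured, among 12300 genes in all. CA9 and SLC16A3 had no probe in that annotation. The single probes for PDK1 and EGLN3 were above background on 0 of 7 arrays with detection values, so both genes were left out. The cells were 293T, a human embryonic kidney line that stably carries the SV40 T antigen. They expressed a short hairpin RNA: a control hairpin (NCsh), or one against the linker histone H1.2 (H1.2sh), the ubiquitin ligase scaffold Cul4A (Cul4Ash) or the elongation factor PAF1 (PAF1sh). All groups therefore carried a hairpin, and no second hairpin per target or rescue is named in the labels, so an effect of losing the target and another effect of its hairpin cannot be told apart. Total RNA from each group was hybridized to 2 Illumina bead arrays, 8 arrays in all. The labels do not state whether replicate arrays stem from separate cultures, so a p-value here weighs a difference only against the spread of these arrays, which may be technical. Oxygen and glucose supply are not stated either.

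Glycolysis splits glucose into pyruvate in the cytosol and yields ATP without oxygen. Its pace is set at glucose uptake, at hexokinase and at phosphofructokinase, and the PFKFB enzymes make and break fructose 2,6-bisphosphate, the strongest activator of phosphofructokinase. The hypoxia-inducible factors are transcription factors whose alpha subunits, HIF1A and EPAS1 (HIF-2 alpha), are marked for destruction by prolyl hydroxylases such as EGLN1 when oxygen is plentiful. When oxygen is scarce they accumulate, bind DNA at a short core motif and raise glucose transporters, most glycolytic enzymes and many other genes. Because this control acts on the protein, the mRNA of an alpha subunit need not follow the activity of the factor, and protein was not measured.

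The members include genes listed as known HIF targets, so a larger share of windows with the core may follow from that choice. The core motif was looked for without use of the array values, although the windows printed below were picked by array calls. It was read as ACGTG or GCGTG on either strand (CACGT or CACGC on the printed strand), with overlapping matches counted as 1, in the RefSeq promoter windows of build GRCh38.p14, which run from 250 bases before to 50 bases after a transcription start. A window was held for 34 of the 39 genes, 64 windows in all; VEGFA, NDRG1, SLC2A3, PFKFB2 and BNIP3L had none. The core was in 43 of 64 member windows (67.2%) and in 17012 of 35116 windows of all genes (48.4%). Among genes with a single window these shares were 18 of 21 (85.7%) and 47.3%. The longer motif CACGTG, which holds the core, was in 12.5% of member windows and in 7.26% of all windows. The core contains the dinucleotide CG, and GC content differs between windows, so these shares are descriptions of letters and not counts of bound sites. Windows are printed for SLC2A1, PFKFB4, P4HA1, ADM and BNIP3, which are among the single-window genes that fell in at least 2 depletions, and for PGAM1, which rose in Cul4Ash. They are written 5′ to 3′ on the gene's strand, with matches in capitals. The SLC2A1 window is chr1:42958819-42959118 (minus strand), that of PFKFB4 chr3:48556754-48557053 (minus), of P4HA1 chr10:73096817-73097116 (minus), of ADM chr11:10304823-10305122 (plus), of BNIP3 chr10:131981874-131982173 (minus) and of PGAM1 chr10:97427568-97427867 (plus).
SLC2A1: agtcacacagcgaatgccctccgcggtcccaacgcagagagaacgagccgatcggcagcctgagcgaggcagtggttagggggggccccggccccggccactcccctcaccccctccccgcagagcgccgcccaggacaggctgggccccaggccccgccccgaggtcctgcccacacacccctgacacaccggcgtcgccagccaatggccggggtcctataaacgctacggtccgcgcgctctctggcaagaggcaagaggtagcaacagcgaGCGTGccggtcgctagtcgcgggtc
PFKFB4: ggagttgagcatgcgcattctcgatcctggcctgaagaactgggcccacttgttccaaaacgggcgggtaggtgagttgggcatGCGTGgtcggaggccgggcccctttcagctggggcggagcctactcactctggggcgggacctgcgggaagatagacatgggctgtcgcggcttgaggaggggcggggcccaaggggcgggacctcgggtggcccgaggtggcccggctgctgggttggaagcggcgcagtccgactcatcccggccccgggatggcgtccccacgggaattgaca
P4HA1: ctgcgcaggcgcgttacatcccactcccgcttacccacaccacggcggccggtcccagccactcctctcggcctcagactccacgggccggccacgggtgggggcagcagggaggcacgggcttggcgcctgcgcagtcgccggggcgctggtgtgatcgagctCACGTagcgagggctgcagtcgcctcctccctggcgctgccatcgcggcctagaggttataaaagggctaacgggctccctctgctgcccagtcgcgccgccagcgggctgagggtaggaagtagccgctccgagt
ADM: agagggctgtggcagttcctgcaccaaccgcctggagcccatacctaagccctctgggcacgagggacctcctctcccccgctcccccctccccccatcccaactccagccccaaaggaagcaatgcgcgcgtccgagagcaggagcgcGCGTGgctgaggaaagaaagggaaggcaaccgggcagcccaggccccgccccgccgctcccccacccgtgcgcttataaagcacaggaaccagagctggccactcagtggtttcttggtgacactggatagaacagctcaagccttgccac
BNIP3: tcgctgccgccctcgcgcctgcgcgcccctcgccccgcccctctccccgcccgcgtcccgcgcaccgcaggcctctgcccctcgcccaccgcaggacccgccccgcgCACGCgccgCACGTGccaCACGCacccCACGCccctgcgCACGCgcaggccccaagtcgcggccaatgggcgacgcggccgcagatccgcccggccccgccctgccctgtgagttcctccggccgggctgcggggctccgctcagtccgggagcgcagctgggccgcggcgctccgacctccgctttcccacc
PGAM1: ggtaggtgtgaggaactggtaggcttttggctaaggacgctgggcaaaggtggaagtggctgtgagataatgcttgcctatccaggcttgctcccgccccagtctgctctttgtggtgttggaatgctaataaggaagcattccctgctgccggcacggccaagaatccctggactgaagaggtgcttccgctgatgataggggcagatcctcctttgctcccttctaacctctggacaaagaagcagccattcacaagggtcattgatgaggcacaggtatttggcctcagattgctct
SLC2A1, PFKFB4, P4HA1 and ADM each held 1 match, BNIP3 held 5 in a row between 143 and 104 bases before its start, and these letters were not found in the PGAM1 window. GPI, EPAS1 and PKM, the other single-window genes that rose in Cul4Ash, also held 1 match each. Whether the core goes with a direction of change was not tested. The GC content of the windows was 71.0% for SLC2A1, 68.0% for PFKFB4, 70.3% for P4HA1, 65.0% for ADM, 80.7% for BNIP3 and 53.3% for PGAM1.

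The targeted genes were lowest on the arrays labelled for them: H1-2 at 46.5% of NCsh in H1.2sh, CUL4A at 35.2% in Cul4Ash and PAF1 at 16.7% in PAF1sh. Array medians lay between 82.8 and 88.7 (linear intensity), and on the 5 arrays with an undisputed detection column 39.2% to 42.5% of the probes were above background. A second deposited table, with raw signals and detection p-values for 7 arrays, names 2 arrays differently: its columns for H1.2sh replicate 2 and Cul4Ash replicate 2 hold the arrays that the first table assigns to Cul4Ash replicate 2 and PAF1sh replicate 2. The array that the second table names H1.2sh replicate 2 had H1-2 at 9.21 and CUL4A at 6.88 (log2 intensity). The one it names Cul4Ash replicate 2 had CUL4A at 8.63 and PAF1 at 8.03. H1-2 was at 8.05 on the first table's H1.2sh replicate 2. NCsh arrays were at 9.24 and 9.07 for H1-2, 8.46 and 8.33 for CUL4A and 10.61 and 10.5 for PAF1. The targets were thus low under the names of the first table, whose groups are used here. Counts without the second array of each depletion, called the arrays in doubt because the tables differ, are given beside each comparison. Of 10 genes taken as markers of 293T cells, 7 were above background, while PAX2, PAX8 and LHX1 were so on 0 of 7 arrays. The leukocyte genes PTPRC and CD3E, the endothelial and keratinocyte markers and COL1A2 were not above background on any array. On at least 2 arrays, 3 of 5 fibroblast genes were above background, and so were, from the leukocyte list, CD68 and, from the hepatocyte list, ALB and APOA1.

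In each depletion a larger share of these genes fell than of all genes, while the share that rose was above that of all genes in Cul4Ash, near it in H1.2sh and below it in PAF1sh. In H1.2sh, 12 of the 35 measured genes fell (34.3%) and 3 rose (8.57%), where 8.15% of all 12300 genes fell and 7.28% rose. In Cul4Ash, 11 fell (31.4%) and 8 rose (22.9%), against 9.60% and 11.0% of all genes. In PAF1sh, 16 fell (45.7%) and 2 rose (5.71%), against 19.9% and 19.0% of all genes. A gene rose or fell here if limma's adjusted p over the 12300 genes was under 0.05. The median log2 change of the 35 genes was -0.21 for H1.2sh, -0.04 for Cul4Ash and -0.20 for PAF1sh, where the median of all genes was -0.01, 0.00 and 0.00. The 3 comparisons share the NCsh arrays and are therefore not independent of each other.

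**Figure D1:**
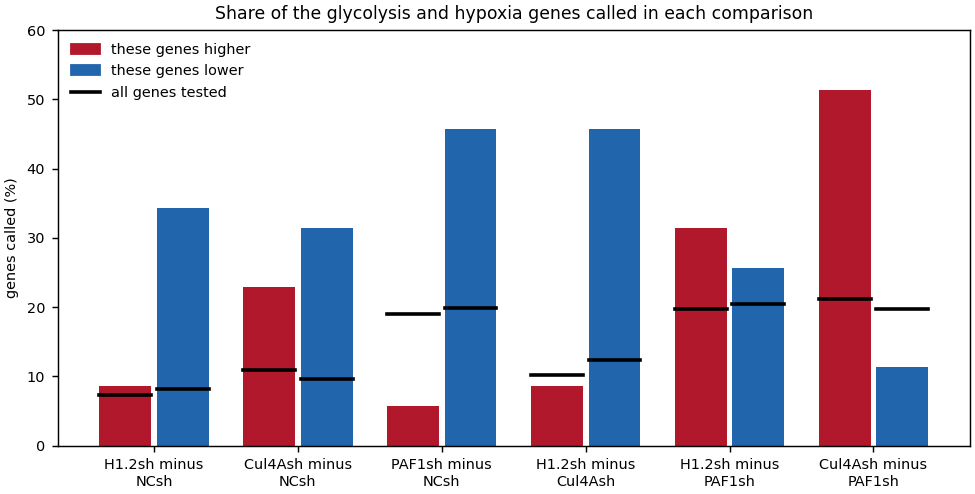
Percent of the 35 measured genes called higher (red bars) or lower (blue bars) at an adjusted p under 0.05, in each of 6 comparisons, with a black line at the percent of all 12300 genes. Against NCsh the blue bars stand above their lines in each depletion (34.3%, 31.4% and 45.7% against 8.15%, 9.60% and 19.9%).

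With the 5 arrays whose names are not in doubt (both of NCsh and 1 of each depletion), 9 members fell and 0 rose in H1.2sh, with 9 and 4 in Cul4Ash and 13 and 1 in PAF1sh. Of all genes, 373 fell and 314 rose in H1.2sh in that setting, 606 and 685 in Cul4Ash and 1859 and 1636 in PAF1sh. When the raw signals of the same 5 arrays were normalized with neqc, limma called 0 members in H1.2sh and 0 in Cul4Ash (16 and 17 at an unadjusted p under 0.05) and 11 lower and 0 higher in PAF1sh. In that setting it also called 0 of all 12300 genes in H1.2sh and in Cul4Ash, and 1222 lower and 817 higher in PAF1sh, so the 0 counts are not particular to these genes. The genes that rose depended on the scaling between arrays. With median scaling in place of quantile normalization, 0 rose in H1.2sh, 3 in Cul4Ash (GPI, PGAM1 and EPAS1) and 1 in PAF1sh, and over all genes the share of calls that were increases went from 47.2% to 18.1% in H1.2sh and from 53.5% to 28.2% in Cul4Ash. Single arrays mattered as well. The count that rose in H1.2sh was 0 without either NCsh array and 1 without either H1.2sh array. The count that rose in Cul4Ash was 4 without NCsh replicate 1, NCsh replicate 2 or Cul4Ash replicate 2 and 3 without Cul4Ash replicate 1, and the count that fell there was 7 without NCsh replicate 1. Calls over all genes dropped as well, to 300 to 485 rising in H1.2sh (896 with all arrays) and 692 to 913 rising in Cul4Ash (1358 with all arrays), with 638 in place of 1181 falling in Cul4Ash without NCsh replicate 1.

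**Figure D2:**
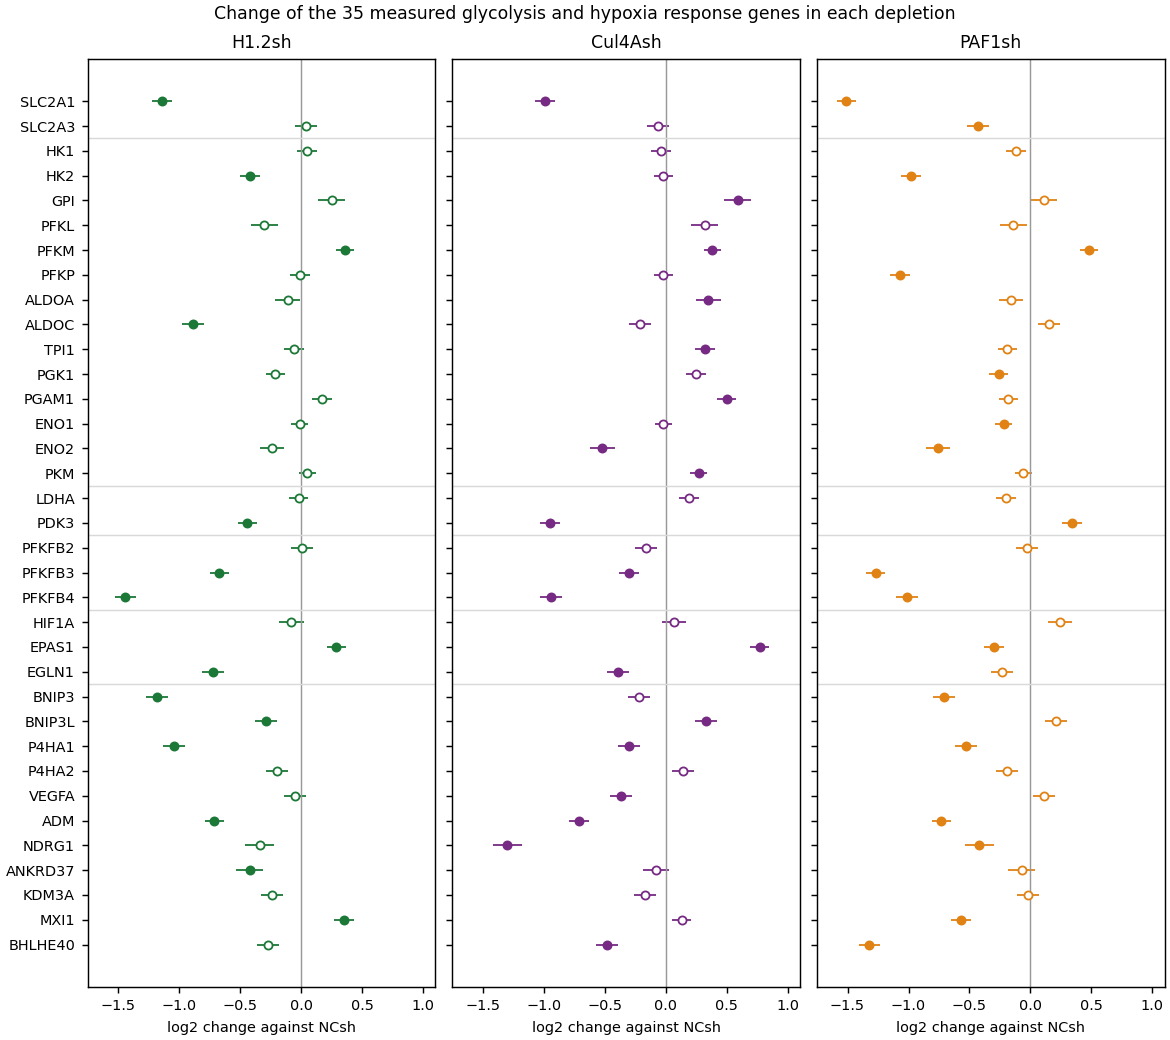
Log2 change against NCsh (horizontal axis) of each of the 35 measured genes in H1.2sh, Cul4Ash and PAF1sh, with standard errors from limma over 2 arrays per group. Filled points passed an adjusted p of 0.05. SLC2A1 lies furthest to the left in PAF1sh (-1.51), PFKFB4 in H1.2sh (-1.44) and NDRG1 in Cul4Ash (-1.30).

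Glucose entry was represented by 2 measured transporters. SLC2A1 (GLUT1) carries glucose across the plasma membrane in most cells and is a classical HIF target. It was at 10.54 and 10.58 on the NCsh arrays, 9.39 and 9.46 on H1.2sh, 9.60 and 9.55 on Cul4Ash and 9.11 and 8.99 on PAF1sh (log2 intensity, as for all levels that follow). Every array of every depletion lay below both NCsh arrays, and the PAF1sh arrays lay lowest. Its level was 45.5% of NCsh in H1.2sh (log2 change -1.14 ± 0.08, SE, n = 2 arrays per group; adjusted p = 2.28e-05). It was 50.4% in Cul4Ash (-0.99 ± 0.08, adjusted p = 2.98e-05) and 2.85-fold lower than NCsh in PAF1sh (-1.51 ± 0.08, adjusted p = 1.18e-06). The decrease in PAF1sh was larger than in H1.2sh (difference 0.38, adjusted p = 0.00328) and in Cul4Ash (0.52, adjusted p = 0.000439), while H1.2sh and Cul4Ash differed by -0.15 (adjusted p = 0.214). SLC2A3 (GLUT3), a transporter of high glucose affinity, was at 9.15 and 8.99 in NCsh, 9.04 and 9.20 in H1.2sh, 9.0 and 9.03 in Cul4Ash and 8.65 and 8.64 in PAF1sh. Only the PAF1sh arrays lay clear of NCsh, and SLC2A3 fell there (-0.43 ± 0.09, adjusted p = 0.00293), with changes of 0.04 and -0.06 in H1.2sh and Cul4Ash (adjusted p = 0.795 and 0.688).

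**Figure D3:**
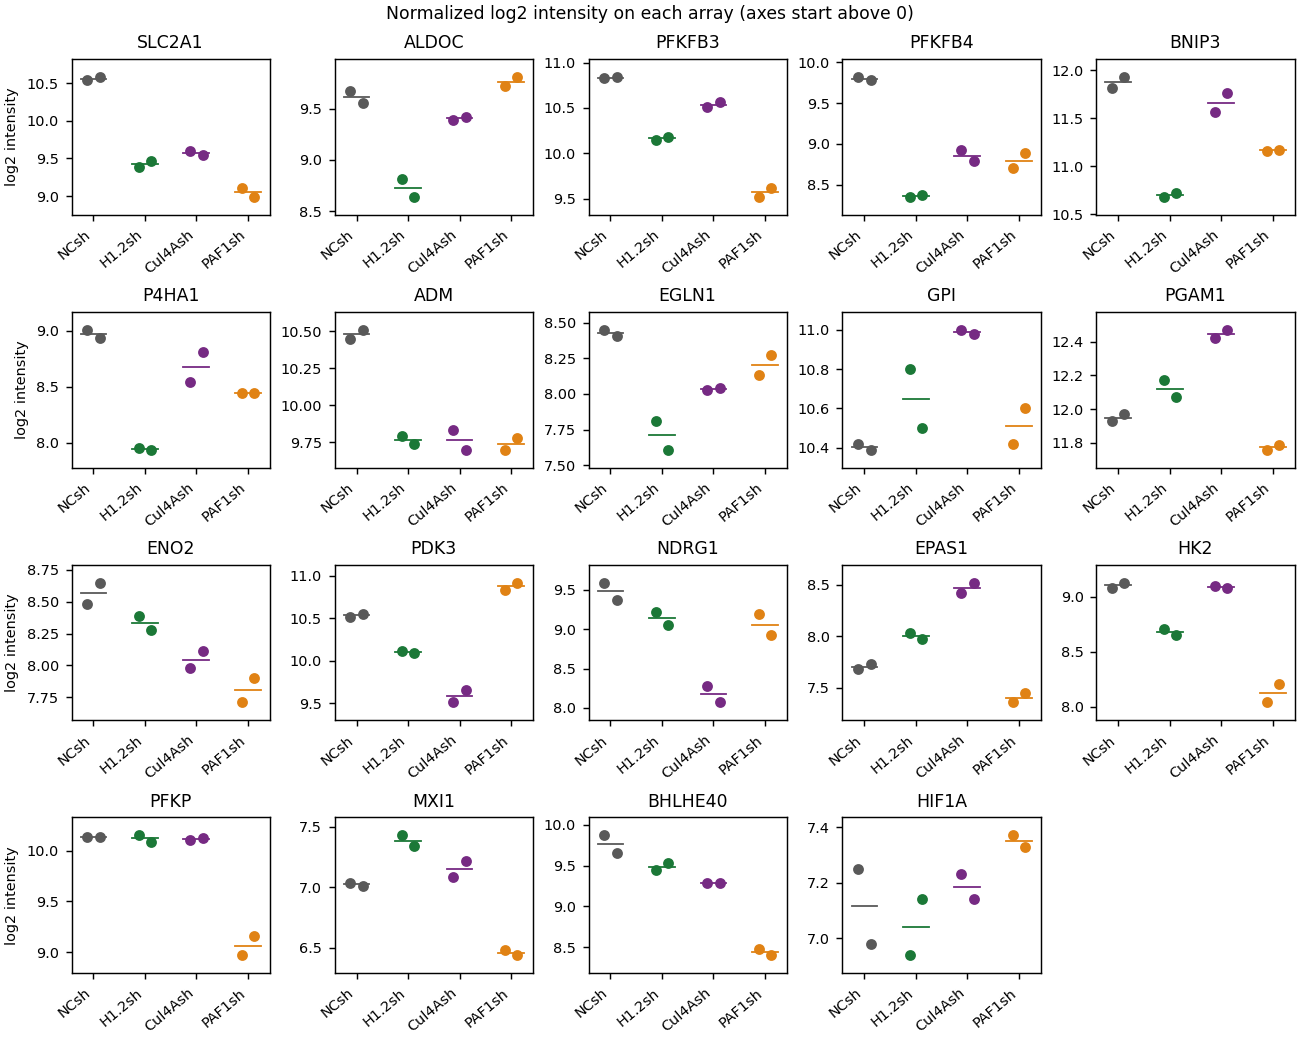
Log2 intensity of 19 genes on each of the 8 arrays: those with a called change of at least 0.5 against NCsh in any depletion, and HIF1A. Points are arrays, lines are group means, and the vertical axes start above 0. SLC2A1 and PFKFB4 are below NCsh on all 6 depletion arrays, while EPAS1 is above NCsh in H1.2sh and Cul4Ash and below it in PAF1sh.

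The PFKFB genes encode the enzymes that set the level of fructose 2,6-bisphosphate. In each depletion 2 of the 3 measured fell, PFKFB3 and PFKFB4, and PFKFB2 did not pass. PFKFB4 was at 9.82 and 9.78 in NCsh, 8.35 and 8.37 in H1.2sh, 8.92 and 8.79 in Cul4Ash and 8.70 and 8.89 in PAF1sh. No depletion array reached the NCsh range, and the H1.2sh arrays were lowest. The level was 36.9% of NCsh in H1.2sh (-1.44 ± 0.09, adjusted p = 1.43e-05), 52.0% in Cul4Ash (-0.94 ± 0.09, adjusted p = 7.06e-05) and 49.7% in PAF1sh (-1.01 ± 0.09, adjusted p = 1.5e-05). H1.2sh lay below Cul4Ash (-0.50, adjusted p = 0.00285) and below PAF1sh (-0.43, adjusted p = 0.00269), and Cul4Ash and PAF1sh differed by 0.06 (adjusted p = 0.601). PFKFB3, whose product mainly makes fructose 2,6-bisphosphate, was at 10.83 and 10.84 in NCsh, 10.15 and 10.18 in H1.2sh, 10.51 and 10.56 in Cul4Ash and 9.52 and 9.62 in PAF1sh. The 4 groups did not overlap, and their order was another one than for PFKFB4, with PAF1sh lowest. PFKFB3 fell by 0.67 ± 0.08 in H1.2sh (adjusted p = 0.00026) and by 1.27 ± 0.08 in PAF1sh (adjusted p = 2.2e-06). The Cul4Ash change of -0.30 ± 0.08 (adjusted p = 0.0185) did not pass when either array of NCsh or of Cul4Ash was left out (adjusted p = 0.0761, 0.0744, 0.102 and 0.0545) or with the 5 arrays not in doubt (adjusted p = 0.0809). A second PFKFB3 probe changed by -0.25, -0.31 and -0.75 in H1.2sh, Cul4Ash and PAF1sh, which is less than the first probe in H1.2sh and PAF1sh and about the same in Cul4Ash. PFKFB2 stayed between 6.66 and 6.94 over all 8 arrays, with changes of 0.01, -0.16 and -0.03.

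The 14 enzymes of the pathway itself, from hexokinase to enolase and pyruvate kinase, did not move as 1 block. In H1.2sh 1 rose, 2 fell and 11 did not pass (median change -0.03). In Cul4Ash 6 rose and 1 fell (median 0.26), and in PAF1sh 1 rose and 5 fell (median -0.17). For comparison, 7.28% of all genes rose and 8.15% fell in H1.2sh, 11.0% and 9.60% in Cul4Ash, and 19.0% and 19.9% in PAF1sh. Isoforms of the same step often went separate ways, as in the plot of changes by pathway step.

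**Figure D4:**
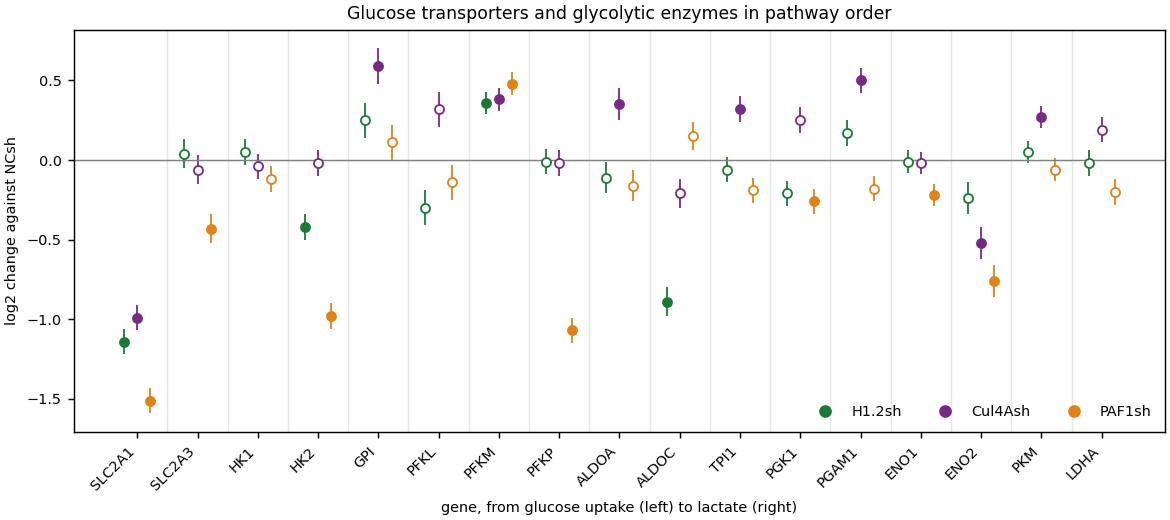
Log2 change against NCsh (vertical axis, with standard errors) of the transporters and glycolytic enzymes in the order of the pathway, for H1.2sh, Cul4Ash and PAF1sh. PFKP falls in PAF1sh (-1.07) while PFKM, another subunit of the same enzyme, rises (0.48), and GPI and PGAM1 rise in Cul4Ash (0.59 and 0.50).

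Hexokinase phosphorylates glucose and so traps it in the cell. HK2, the hypoxia-inducible hexokinase, was at 9.08 and 9.13 in NCsh, 8.71 and 8.65 in H1.2sh, 9.10 and 9.08 in Cul4Ash and 8.04 and 8.21 in PAF1sh. The Cul4Ash arrays lay within the NCsh range, and those of H1.2sh and PAF1sh lay below it. HK2 fell in H1.2sh (-0.42 ± 0.08, adjusted p = 0.00783) and to 50.6% of NCsh in PAF1sh (-0.98 ± 0.08, adjusted p = 1.25e-05), with -0.02 in Cul4Ash (adjusted p = 0.917). A second HK2 probe moved by much less, at -0.22, 0.16 and -0.27 in the order H1.2sh, Cul4Ash, PAF1sh. Without H1.2sh replicate 2 the H1.2sh change was -0.39 and did not pass (adjusted p = 0.0599). HK1, the housekeeping hexokinase, passed in no depletion (0.05, -0.04 and -0.12). GPI converts glucose 6-phosphate to fructose 6-phosphate. It was at 10.42 and 10.39 in NCsh, 10.80 and 10.50 in H1.2sh, 11.00 and 10.98 in Cul4Ash and 10.42 and 10.60 in PAF1sh. The Cul4Ash arrays were highest, and GPI rose there by 0.59 ± 0.11 (adjusted p = 0.00388), while 0.25 in H1.2sh and 0.11 in PAF1sh did not pass (adjusted p = 0.147 and 0.469).

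Phosphofructokinase commits the sugar to glycolysis and is built from 3 kinds of subunit, each named for a tissue: platelet (PFKP), muscle (PFKM) and liver (PFKL). PFKP was at 10.13 on both NCsh arrays, 10.15 and 10.09 in H1.2sh, 10.10 and 10.12 in Cul4Ash and 8.97 and 9.16 in PAF1sh. The PAF1sh arrays stood apart from the other 6. PFKP was at 47.7% of NCsh in PAF1sh (-1.07 ± 0.08, adjusted p = 8.9e-06), and its changes in H1.2sh and Cul4Ash were -0.01 and -0.02 (adjusted p = 0.96 and 0.903). PFKP was also lower in PAF1sh than in H1.2sh (1.06, adjusted p = 9.07e-06) and Cul4Ash (1.05, adjusted p = 9.32e-06). PFKM was at 9.77 and 9.76 in NCsh, 10.10 and 10.16 in H1.2sh, 10.19 and 10.10 in Cul4Ash and 10.23 and 10.26 in PAF1sh. All 6 depletion arrays lay above NCsh. PFKM rose by 0.36 ± 0.07 in H1.2sh (adjusted p = 0.01), by 0.38 ± 0.07 in Cul4Ash (adjusted p = 0.00585) and by 0.48 ± 0.07 in PAF1sh (adjusted p = 0.000599). With median scaling the increases in H1.2sh and Cul4Ash did not pass. In H1.2sh the increase was also lost without NCsh replicate 1, NCsh replicate 2 or H1.2sh replicate 2, and in Cul4Ash without Cul4Ash replicate 1. PFKL passed in no depletion against NCsh (-0.30, 0.32 and -0.14), although H1.2sh lay below Cul4Ash (-0.63, adjusted p = 0.00268).

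Aldolase cleaves the sugar into 2 triose phosphates. ALDOC, the aldolase best known from brain, was at 9.67 and 9.56 in NCsh, 8.81 and 8.64 in H1.2sh, 9.39 and 9.42 in Cul4Ash and 9.72 and 9.81 in PAF1sh. H1.2sh was the group furthest from NCsh. The level was 53.9% of NCsh there (-0.89 ± 0.09, adjusted p = 0.000104), with -0.21 in Cul4Ash and 0.15 in PAF1sh (adjusted p = 0.106 and 0.199). H1.2sh also lay below Cul4Ash (-0.68, adjusted p = 0.00042) and PAF1sh (-1.04, adjusted p = 1.12e-05). ALDOA, the widespread form, rose in Cul4Ash (0.35, adjusted p = 0.03), as did TPI1, which interconverts the triose phosphates (0.32, adjusted p = 0.023), and PKM, the pyruvate kinase (0.27, adjusted p = 0.0255). Further probes of ALDOA changed by 0.55 and -0.06, of TPI1 by 0.18 and of PKM by 0.41 and 0.26. All 3 increases were lost when either array of NCsh or of Cul4Ash was left out, and with median scaling.

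PGAM1, a phosphoglycerate mutase of the lower pathway, was at 11.93 and 11.97 in NCsh, 12.17 and 12.07 in H1.2sh, 12.42 and 12.47 in Cul4Ash and 11.76 and 11.79 in PAF1sh. The groups did not overlap, with Cul4Ash highest and PAF1sh lowest. Its increase in Cul4Ash was 0.50 ± 0.08 (adjusted p = 0.00149), and 0.17 in H1.2sh and -0.18 in PAF1sh did not pass (adjusted p = 0.163 and 0.0848). A second PGAM1 probe changed by 0.15, 0.51 and -0.33, and with the mean of both probes the PAF1sh change of -0.26 passed (adjusted p = 0.0151). PGAM4 is a close copy of PGAM1, and several glycolytic genes have processed pseudogenes, so which copy these probes read is uncertain. ENO2, the neuronal enolase, was at 8.48 and 8.65 in NCsh, 8.39 and 8.28 in H1.2sh, 7.98 and 8.11 in Cul4Ash and 7.71 and 7.90 in PAF1sh. All depletion arrays lay below NCsh, by less in H1.2sh than in the other groups. ENO2 fell in Cul4Ash (-0.52 ± 0.10, adjusted p = 0.00454) and PAF1sh (-0.76 ± 0.10, adjusted p = 0.000183), while -0.24 in H1.2sh did not pass (adjusted p = 0.132) and was -0.37 with median scaling (adjusted p = 0.0498). ENO1, the widespread enolase, changed by -0.01, -0.02 and -0.22. The PAF1sh change of ENO1 passed (adjusted p = 0.0371) but held in only 4 of 17 alternative settings. PGK1, an ATP-forming kinase, fell in PAF1sh (-0.26, adjusted p = 0.0296), a call that was lost without NCsh replicate 1, NCsh replicate 2 or PAF1sh replicate 1, and its change was 0.25 in Cul4Ash (adjusted p = 0.0528). A second PGK1 probe was at -0.52 in PAF1sh and 0.02 in Cul4Ash.

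At the end of the pathway, LDHA, which turns pyruvate into lactate, passed in no depletion (-0.02, 0.19 and -0.20, adjusted p = 0.91, 0.131 and 0.0826). PDK3 is a kinase that shuts off pyruvate dehydrogenase and so keeps pyruvate out of the mitochondrial cycle. It was at 10.52 and 10.55 in NCsh, 10.11 and 10.09 in H1.2sh, 9.51 and 9.66 in Cul4Ash and 10.83 and 10.92 in PAF1sh. Every group lay apart from the others, Cul4Ash lowest and PAF1sh highest. PDK3 fell in H1.2sh (-0.44 ± 0.08, adjusted p = 0.00577) and Cul4Ash (-0.95 ± 0.08, adjusted p = 4.88e-05) and rose in PAF1sh (0.34 ± 0.08, adjusted p = 0.00675). A second PDK3 probe disagreed in Cul4Ash, at 0.14, with -0.18 in H1.2sh and 0.25 in PAF1sh. Without the arrays in doubt the H1.2sh and PAF1sh changes did not pass (adjusted p = 0.0527 and 0.0643), nor did the PAF1sh change with median scaling (adjusted p = 0.107).

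Of the HIF alpha subunits, HIF1A was at 7.25 and 6.98 in NCsh, 6.94 and 7.14 in H1.2sh, 7.23 and 7.14 in Cul4Ash and 7.37 and 7.33 in PAF1sh. H1.2sh and Cul4Ash overlapped NCsh, whose own 2 arrays were the furthest apart. The changes were -0.08 ± 0.10, 0.07 ± 0.10 and 0.24 ± 0.10, none of which passed (adjusted p = 0.665, 0.693 and 0.101). Without NCsh replicate 1 the PAF1sh change of HIF1A was 0.37 and passed (adjusted p = 0.0298), and H1.2sh lay below PAF1sh on all arrays (-0.32, adjusted p = 0.035). EPAS1, which encodes HIF-2 alpha, was at 7.68 and 7.73 in NCsh, 8.03 and 7.97 in H1.2sh, 8.42 and 8.52 in Cul4Ash and 7.36 and 7.45 in PAF1sh. No groups overlapped, and the direction differed, with Cul4Ash highest and PAF1sh lowest. EPAS1 rose to 170% of NCsh in Cul4Ash (0.77 ± 0.08, adjusted p = 0.000121) and fell in PAF1sh (-0.30 ± 0.08, adjusted p = 0.0122). The difference between Cul4Ash and PAF1sh was 1.06 (adjusted p = 6.21e-06). Its H1.2sh change of 0.29 ± 0.08 (adjusted p = 0.0301) was lost with median scaling (0.18, adjusted p = 0.433), without the arrays in doubt (adjusted p = 0.108) and without any 1 array of NCsh or H1.2sh (adjusted p of 0.0797 to 0.166). The PAF1sh change of EPAS1 was lost without PAF1sh replicate 1 (adjusted p = 0.0703) or NCsh replicate 2 (adjusted p = 0.0676).

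EGLN1, the main prolyl hydroxylase that marks HIF alpha subunits and itself a HIF target, was at 8.45 and 8.41 in NCsh, 7.81 and 7.61 in H1.2sh, 8.03 and 8.04 in Cul4Ash and 8.13 and 8.27 in PAF1sh. All depletion arrays lay below NCsh, the H1.2sh arrays lowest. EGLN1 was at 60.6% of NCsh in H1.2sh (-0.72 ± 0.09, adjusted p = 0.000505) and fell in Cul4Ash (-0.39 ± 0.09, adjusted p = 0.0128), while -0.23 in PAF1sh did not pass (adjusted p = 0.0668). H1.2sh lay below Cul4Ash (-0.33, adjusted p = 0.026) and PAF1sh (-0.49, adjusted p = 0.00163). The Cul4Ash decrease of EGLN1 was lost without NCsh replicate 1, Cul4Ash replicate 1 or Cul4Ash replicate 2 (adjusted p = 0.0726, 0.0666 and 0.0512).

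The remaining members are known HIF targets outside glucose breakdown, 11 of them measured. In H1.2sh 5 fell and 1 rose, in Cul4Ash 5 fell and 1 rose, and in PAF1sh 6 fell and 0 rose. Of all genes 8.15%, 9.60% and 19.9% fell and 7.28%, 11.0% and 19.0% rose, in the same order. BNIP3, a mitochondrial protein that directs mitochondria to autophagy, was at 11.82 and 11.93 in NCsh, 10.68 and 10.72 in H1.2sh, 11.56 and 11.76 in Cul4Ash and 11.16 and 11.17 in PAF1sh. The H1.2sh arrays lay far below the rest, and the Cul4Ash arrays just under NCsh. BNIP3 was at 44.3% of NCsh in H1.2sh (-1.18 ± 0.09, adjusted p = 3.2e-05) and 61.2% in PAF1sh (-0.71 ± 0.09, adjusted p = 0.000148), and -0.22 in Cul4Ash did not pass (adjusted p = 0.111). H1.2sh lay below Cul4Ash by 0.96 (adjusted p = 5.57e-05) and below PAF1sh by 0.47 (adjusted p = 0.00188). Its relative BNIP3L changed by -0.29 in H1.2sh (adjusted p = 0.0494), 0.33 in Cul4Ash (adjusted p = 0.0247) and 0.21 in PAF1sh (adjusted p = 0.0879). The BNIP3L decrease held in 6 of 17 alternative settings and the increase in 8.

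P4HA1, a subunit of the collagen prolyl hydroxylase, was at 9.01 and 8.94 in NCsh, 7.95 and 7.94 in H1.2sh, 8.54 and 8.81 in Cul4Ash and 8.45 on both PAF1sh arrays. All 6 depletion arrays lay below NCsh, with H1.2sh lowest and the 2 Cul4Ash arrays well apart from each other. P4HA1 was at 48.8% of NCsh in H1.2sh (-1.04 ± 0.09, adjusted p = 8.21e-05) and fell in PAF1sh (-0.53 ± 0.09, adjusted p = 0.00138). The Cul4Ash value of -0.30 ± 0.09 (adjusted p = 0.0477) was lost on leaving out any array but Cul4Ash replicate 2, and was -0.16 without Cul4Ash replicate 1 (adjusted p = 0.304). P4HA2 passed in no depletion (-0.20, 0.14 and -0.19). ADM encodes adrenomedullin, a vasodilator peptide. It was at 10.45 and 10.51 in NCsh, 9.79 and 9.74 in H1.2sh, 9.83 and 9.70 in Cul4Ash and 9.70 and 9.78 in PAF1sh. The 3 depletions overlapped each other and lay below NCsh. Its changes were -0.71 ± 0.08 in H1.2sh (adjusted p = 0.000263), -0.71 ± 0.08 in Cul4Ash (adjusted p = 0.000226) and -0.73 ± 0.08 in PAF1sh (adjusted p = 6.82e-05). Between depletions ADM differed by 0.00 to 0.02 (adjusted p of 0.845 to 0.998).

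NDRG1, a stress-response gene, was at 9.59 and 9.37 in NCsh, 9.22 and 9.05 in H1.2sh, 8.28 and 8.07 in Cul4Ash and 9.19 and 8.92 in PAF1sh. The Cul4Ash arrays stood apart at the low end. NDRG1 was at 40.5% of NCsh in Cul4Ash (-1.30 ± 0.12, adjusted p = 7.06e-05) and fell in PAF1sh (-0.42 ± 0.12, adjusted p = 0.0177), and -0.34 in H1.2sh did not pass (adjusted p = 0.0818) but was -0.45 and passed with median scaling (adjusted p = 0.0111). Cul4Ash lay below H1.2sh by 0.96 (adjusted p = 0.000388). The PAF1sh decrease of NDRG1 was lost without NCsh replicate 1 (adjusted p = 0.126), without PAF1sh replicate 2 (adjusted p = 0.14) and without the arrays in doubt (adjusted p = 0.115). BHLHE40 encodes DEC1, a repressor of transcription. It was at 9.87 and 9.66 in NCsh, 9.44 and 9.53 in H1.2sh, 9.28 and 9.29 in Cul4Ash and 8.48 and 8.40 in PAF1sh. All depletion arrays lay below NCsh, those of PAF1sh by the most. BHLHE40 fell 2.50-fold in PAF1sh (-1.32 ± 0.09, adjusted p = 4.48e-06) and fell in Cul4Ash (-0.48 ± 0.09, adjusted p = 0.00442), and -0.27 in H1.2sh did not pass (adjusted p = 0.0632). The H1.2sh change of BHLHE40 lay near the threshold and passed in 5 alternatives, among them median scaling (adjusted p = 0.0435) and leaving out NCsh replicate 2 (-0.38, adjusted p = 0.043).

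MXI1 encodes a partner of MAX that opposes MYC. It was at 7.04 and 7.01 in NCsh, 7.43 and 7.34 in H1.2sh, 7.09 and 7.22 in Cul4Ash and 6.48 and 6.44 in PAF1sh. H1.2sh and PAF1sh lay on opposite sides of NCsh. MXI1 fell in PAF1sh (-0.57 ± 0.08, adjusted p = 0.000324), and H1.2sh and PAF1sh differed by 0.92 (adjusted p = 1.45e-05). The MXI1 probe used was above background on 6 of 7 arrays, among them the PAF1sh array with an undisputed detection column. The PAF1sh levels of this probe lay near those of MXI1 probes above background on 0 arrays (means of 6.31 and 6.21). The size of the PAF1sh decrease may therefore be limited by the floor. The H1.2sh increase of 0.35 ± 0.08 (adjusted p = 0.0148) was lost with median scaling (0.27, adjusted p = 0.189), without NCsh replicate 1, H1.2sh replicate 1 or NCsh replicate 2 (adjusted p = 0.0619, 0.112 and 0.0721) and without the arrays in doubt (adjusted p = 0.0646). VEGFA, the angiogenic growth factor, fell in Cul4Ash (-0.37, adjusted p = 0.0205), a call lost without NCsh replicate 1, NCsh replicate 2 or Cul4Ash replicate 2, and changed by -0.05 and 0.11 in H1.2sh and PAF1sh. ANKRD37, an ankyrin repeat gene, fell in H1.2sh (-0.42, adjusted p = 0.0337), a call lost without NCsh replicate 2, H1.2sh replicate 2 or either PAF1sh array. KDM3A, a histone demethylase, passed in no depletion (-0.24, -0.17 and -0.02). In bulk RNA, a lower level in every cell and a loss in some cells cannot be told apart.

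The depletions were also compared with each other, in contrasts that leave out the NCsh means, although the NCsh arrays enter the normalization and the estimate of the spread. H1.2sh lay below Cul4Ash in 16 of the 35 genes and above it in 3 (12.4% and 10.2% of all genes), with a median difference of -0.23. Among the 14 glycolytic enzymes 8 were lower in H1.2sh and 0 higher, such as PGK1 (-0.47, adjusted p = 0.00282), TPI1 (-0.37, adjusted p = 0.01) and ALDOA (-0.47, adjusted p = 0.0081). Cul4Ash lay above PAF1sh in 18 genes and below it in 4 (21.2% and 19.8% of all genes), with a median difference of 0.33. This included 9 of the 14 enzymes above and 1 below, with HK2 (0.97, adjusted p = 1.47e-05), PFKP and PGAM1 (0.67, adjusted p = 7.43e-05) among the 9 and ALDOC (-0.36, adjusted p = 0.00649) as the 1. H1.2sh and PAF1sh differed in both directions, 11 higher and 9 lower in H1.2sh (19.8% and 20.4% of all genes), with a median difference of 0.05. Without H1.2sh replicate 2, 9 genes in place of 16 were lower in H1.2sh than in Cul4Ash, while over all genes that count went from 1524 to 843. With the 5 arrays not in doubt the counts higher and lower were 2 and 6 for H1.2sh against Cul4Ash, 8 and 4 for H1.2sh against PAF1sh and 14 and 2 for Cul4Ash against PAF1sh. Over all genes they were 338 and 479, 1547 and 1450, and 1704 and 1510.

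Further genes of the same pathways were counted in lists. Their calls were not checked under the alternative settings used for the members. Of 29 other HIF targets measured (40 listed), 11 fell and 2 rose in H1.2sh (median change -0.12), 11 fell and 0 rose in Cul4Ash (-0.20), and 12 fell and 2 rose in PAF1sh (-0.20). Among all genes 8.15%, 9.60% and 19.9% fell and 7.28%, 11.0% and 19.0% rose. AK4, a mitochondrial adenylate kinase, was at 11.13 and 11.00 in NCsh, 10.45 and 10.40 in H1.2sh, 9.05 and 9.09 in Cul4Ash and 8.36 and 8.34 in PAF1sh, 4 groups without overlap. PLOD2, a lysyl hydroxylase of collagen, fell in H1.2sh (-0.85, adjusted p = 7.83e-05), as did ZNF395 (-0.83, adjusted p = 9.46e-05), which also fell in PAF1sh (-1.06, adjusted p = 7.27e-06). DDIT4, an inhibitor of the mTOR pathway, and STC2, a secreted glycoprotein, fell in Cul4Ash (-1.23, adjusted p = 1.42e-05, and -1.10, adjusted p = 2.31e-05). ERO1A, an oxidase of the endoplasmic reticulum, fell in PAF1sh (-0.73, adjusted p = 0.000211). HMOX1, which degrades heme, went the other way in H1.2sh (1.48, adjusted p = 1.43e-05), and it also responds to oxidative stress.

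Of 13 measured genes of the oxygen-sensing machinery, 3 fell and 0 rose in H1.2sh, and 2 fell and 2 rose in Cul4Ash. In PAF1sh 0 fell and 5 rose. Among all genes 8.15% fell and 7.28% rose in H1.2sh, 9.60% and 11.0% in Cul4Ash and 19.9% and 19.0% in PAF1sh. HIF1AN, the asparaginyl hydroxylase that blocks coactivator binding by HIF alpha subunits, was at 8.05 and 8.10 in NCsh, 7.24 and 7.23 in H1.2sh, 8.20 and 8.07 in Cul4Ash and 8.09 and 7.97 in PAF1sh. H1.2sh alone lay apart, and HIF1AN fell there (-0.84 ± 0.08, adjusted p = 0.000107) and was lower than in Cul4Ash (-0.90, adjusted p = 4.99e-05) and PAF1sh (-0.79, adjusted p = 4.34e-05). ARNT2, a dimer partner of the alpha subunits, fell in Cul4Ash (-0.83, adjusted p = 0.000106). CITED2, a competitor of HIF for coactivators, rose in PAF1sh (0.56, adjusted p = 0.000621).

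The lists around pyruvate and glycogen were small, and their counts stand against 7.28% of all genes rising and 8.15% falling in H1.2sh, 11.0% and 9.60% in Cul4Ash and 19.0% and 19.9% in PAF1sh. Of 10 measured genes of pyruvate entry into mitochondria, 1 rose and 0 fell in H1.2sh and in Cul4Ash, and 1 rose and 2 fell in PAF1sh. The gene that rose was PDHB, a subunit of pyruvate dehydrogenase, at 11.49 and 11.45 in NCsh, 12.17 and 12.15 in H1.2sh, 12.15 and 12.38 in Cul4Ash and 12.46 and 12.41 in PAF1sh. All 6 depletion arrays lay above NCsh, with changes of 0.69 ± 0.09, 0.79 ± 0.09 and 0.97 ± 0.09 (adjusted p = 0.000585, 0.000201 and 2.14e-05). MPC2, a subunit of the mitochondrial pyruvate carrier, fell in PAF1sh (-0.81, adjusted p = 0.000117). Of 9 measured genes of the glycogen and hexosamine branches, 3 fell after H1.2 depletion, 1 after Cul4A depletion and 4 after PAF1 depletion, with 0, 0 and 1 rising. GBE1, the glycogen branching enzyme and a HIF target, was the 1 in Cul4Ash (-0.49, adjusted p = 0.00445) and fell too in H1.2sh (-0.49, adjusted p = 0.00597) and PAF1sh (-0.59, adjusted p = 0.000599). GBE1, GYS1 and PPP1R3C also stand in the list of other HIF targets, so GBE1 is counted in both lists. Of 7 pentose phosphate genes, 0 passed in H1.2sh, 1 rose in Cul4Ash, and 1 rose and 3 fell in PAF1sh, including PGD (-0.50, adjusted p = 0.000565). Of 3 measured gluconeogenic genes 0, 1 and 2 fell, the 1 in Cul4Ash being PCK2 (-1.04, adjusted p = 5.46e-05). Of 11 other glycolysis genes measured (22 listed), 0 passed in H1.2sh, 2 rose in Cul4Ash, and 2 rose and 3 fell in PAF1sh. The 2 in Cul4Ash were LDHC (0.63, adjusted p = 0.000587) and PGAM4 (0.35, adjusted p = 0.0225). PGAM4 is the close copy of PGAM1, so its increase may not be separate from that of PGAM1. In PAF1sh ENO3 rose (0.65, adjusted p = 0.000227), and SLC2A8 (-0.54, adjusted p = 0.00208) and LDHB (-0.44, adjusted p = 0.00101) fell.

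The MAX network holds MYC, which activates many glycolytic genes, and its antagonists, and was listed with the glucose-responsive gene TXNIP, whose product restrains glucose uptake. Of 10 measured genes, 2 rose and 0 fell in H1.2sh, 2 rose and 1 fell in Cul4Ash, and 4 rose and 3 fell in PAF1sh. Of all genes, 7.28% rose and 8.15% fell in H1.2sh, 11.0% and 9.60% in Cul4Ash and 19.0% and 19.9% in PAF1sh. MYC was at 10.06 and 10.15 in NCsh, 10.25 and 10.23 in H1.2sh, 9.58 and 9.55 in Cul4Ash and 8.96 and 8.89 in PAF1sh. It lay lowest in PAF1sh (-1.18 ± 0.07, adjusted p = 3.35e-06), then in Cul4Ash (-0.54 ± 0.07, adjusted p = 0.000862), and 0.14 in H1.2sh did not pass (adjusted p = 0.254). TXNIP was at 8.57 and 8.56 in NCsh, 8.92 and 8.94 in H1.2sh, 9.43 and 9.18 in Cul4Ash and 9.86 and 9.97 in PAF1sh. All depletion arrays lay above NCsh, with changes of 0.37, 0.74 and 1.34 (adjusted p = 0.0264, 0.000454 and 4.95e-06). MXD3, a MAX partner that opposes MYC, rose by 0.35, 0.56 and 1.5 (adjusted p = 0.031, 0.00251 and 2.86e-06). The calls of these genes were not checked under the alternative settings either. Whether any of these levels bears on those of the glycolytic genes was not tested.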

How the data were processed

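Total RNA for 8 arrays, 2 in each of 4 groups, was, per the protocols in the labels, converted to biotinylated cRNA and hybridized to Illumina arrays. The authors' deposited series matrix holds linear intensity values for every array. Their deposited scanner table gives an intensity and a detection p-value per probe for 7 arrays, and 2 of its columns were empty and not used. The software behind these values is not given in the sources used here, so how the matrix was adjusted for background is not known. Probes above background on 0 arrays still had mean log2 values of 6.23 (EGLN3) and 6.30 (PDK1) in it, so changes of dim probes may be understated. Set against the matrix, 2 scanner columns carry another array's name. Groups were therefore taken from the matrix, and the detection filter used no group names.

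The matrix was taken to log2 and quantile normalized across arrays over 47154 probes. Probes with a detection p-value under 0.05 on at least 2 of 7 arrays were kept (22131). Of these, 16305 had 1 gene symbol in GEO's platform annotation, and the brightest probe per gene gave 12300 genes; 15 members had several kept probes. Levels of different probes were not compared, except for MXI1 against its probes above background on 0 arrays. limma 3.58.1 (R 4.3.3) fitted 4 group means over 8 arrays (4 residual and 6.19 prior degrees of freedom), with Benjamini-Hochberg adjustment over all 12300 genes and a threshold of 0.05. Precision is limited by the number of arrays. The fit was also run on simulated data with independent noise. That run tests neither the scaling between arrays nor the array names.

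The members and the gene lists were chosen with earlier results of these data known, so counts over them are descriptions. Members with an adjusted p under 0.05 and an absolute log2 change of at least 0.5 in any depletion against NCsh, and HIF1A, EPAS1 and EGLN1, are given on every array. SLC2A3 and PFKM are also given so, chosen after their values were seen. From the other lists, up to 3 genes per comparison with the largest change were eligible to be named. Alternatives were median scaling, no normalization, other probe filters, the mean of a gene's probes, a trended and robust variance, the 5 arrays not in doubt with or without neqc, a replicate block, and leaving out each array. Same-numbered arrays did not deviate together (correlations of -0.13 to 0.11), so replicate numbers were not taken as pairs.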

Additional observations from a re-analysis of the deposited data

How the results depend on the processing

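Counts of members called are given as higher and lower. Replacing quantile normalization by median scaling changed the count higher from 3 to 0 in H1.2sh, from 8 to 3 in Cul4Ash and from 2 to 1 in PAF1sh against NCsh, and no normalization gave 0, 3 and 1. The share of all calls that were increases went from 47.2% to 18.1% (median scaling) and 14.2% (none) in H1.2sh and from 53.5% to 28.2% and 41.8% in Cul4Ash. Without the filter on dim probes the count higher in Cul4Ash was 4, and with the mean of a gene's probes the count of members higher in H1.2sh than in Cul4Ash was 1 in place of 3. Over all genes the first count was 865 of 20038, in place of 1358 of 12300. The second was 1222 in place of 1257, both of 12300. The matrix values of the 5 arrays not in doubt gave 0 higher for H1.2sh, 4 for Cul4Ash and 1 for PAF1sh against NCsh, 6 lower in H1.2sh than in Cul4Ash, 4 lower in H1.2sh than in PAF1sh and 2 lower in Cul4Ash than in PAF1sh. With neqc on the raw signals of these 5 arrays, limma called 0 members higher and 0 lower in H1.2sh and in Cul4Ash against NCsh and between the 2 (16, 17 and 16 at an unadjusted p under 0.05). There it called 0 higher in PAF1sh, 5 higher and 1 lower in H1.2sh against PAF1sh, and 5 higher and 2 lower in Cul4Ash against PAF1sh. This setting uses fewer arrays, 1 for each depletion, whose spread is assumed to be that of NCsh. The cause of the other shifts was not tested.

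Leaving out each array in turn gave 0 to 3 higher and 9 to 11 lower in H1.2sh, 3 to 9 and 7 to 10 in Cul4Ash, and 2 to 3 and 13 to 16 in PAF1sh. Between depletions it gave 2 to 3 higher and 9 to 16 lower for H1.2sh against Cul4Ash, 10 to 11 and 7 to 9 for H1.2sh against PAF1sh, and 16 to 19 and 4 for Cul4Ash against PAF1sh. With the replicate number as a block, 3 were higher and 12 lower in H1.2sh, 9 and 10 in Cul4Ash and 2 and 15 in PAF1sh. Over all genes the block gave 775 higher and 909 lower in H1.2sh, 1246 and 1073 in Cul4Ash and 2267 and 2379 in PAF1sh. Of the genes given on every array against NCsh, the block brought NDRG1 in H1.2sh past the threshold (adjusted p = 0.02) and lost P4HA1 in Cul4Ash (adjusted p = 0.0618). A trended, robust variance brought 7 more changes past it: NDRG1, BHLHE40 and PGAM1 in H1.2sh, ALDOC and BNIP3 in Cul4Ash and EGLN1 and PGAM1 in PAF1sh. For HIF1A and members with a called change of at least 0.5, no change against NCsh reversed direction with its call under any alternative. Genes named from the other lists were not checked in this way. The arrays' background limits what could be measured for PDK1 and EGLN3.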
